A study of Mus musculus with 8 samples.

Results

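The genes described here carry the interferon signal from the cell surface to the nucleus. They are 9 of the 55487 genes counted in a Lewis lung carcinoma (LLC) line, and were chosen by name for their place in the pathway: the receptor chains Ifnar2 and Ifngr2, the kinases Jak1 and Tyk2, the transcription factors Stat2, Irf1, Irf3 and Irf9, and the inhibitor Socs1. RNA from LLC cells grown in culture was sequenced from 4 wild-type libraries and 4 libraries of the Ago2 knock-out line (ΔAgo2). LLC is a mouse lung tumor line, and Ago2 is the Argonaute protein that carries small RNAs to their target transcripts. The ΔAgo2 line was made with a lentiviral CRISPR-Cas9 vector, puromycin selection and sorting of single cells, and how many clones stand behind the 4 ΔAgo2 libraries was not stated. The labels name no treatment of any library. The labels give all 8 libraries as one batch and number them as biological replicates without naming separate cultures, so that p-values measure the spread between these libraries, which may be partly technical. Each value is an average over the cells of a library, and fewer cells expressing a gene cannot be told apart from less RNA per cell.

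Type I interferons bind a receptor made of the Ifnar1 and Ifnar2 chains, to which the kinases Tyk2 and Jak1 are attached. The kinases phosphorylate STAT proteins, of which Stat2 joins Irf9 in ISGF3, the factor that binds interferon-stimulated response elements (ISRE). Interferon gamma uses the Ifngr1 and Ifngr2 chains with Jak1 and Jak2, and the STAT dimer that results binds gamma-activated sites (GAS). Irf3 lies upstream, where sensors of foreign nucleic acid switch it on to induce interferon genes, Irf1 is itself an interferon-induced activator, and Socs1 is an induced inhibitor of the JAK kinases.

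Between 39628101 and 68530912 reads were assigned to genes per library. Wild-type replicate 4 stood apart. Its median Spearman correlation with the other wild-type libraries was 0.864, against 0.948 to 0.961 for the other wild-type libraries and 0.985 to 0.986 among ΔAgo2 libraries, and the mitochondrial share of its counts was 0.54%, where the other 7 had 2.39% to 4.51%. The difference of wild-type replicate 4 from the other wild-type libraries followed the GC content of the genes (Spearman rho = 0.722 across 14228 genes, which are not independent). The same measure, within each group, gave -0.509 to -0.427 for the other wild-type libraries and -0.157 to 0.336 for ΔAgo2 libraries. ΔAgo2 replicates 1 and 2 were the closest pair, and even these differed by more than sampling noise (chi-square per gene 22.8, where counting noise alone gives about 1). The targeted gene, Ago2, had a wild-type range of 119 to 520 CPM (gene counts scaled to library size) and a ΔAgo2 range of 293 to 408 CPM. Its transcript level therefore does not check the genotype labels, and the libraries are called by their labels throughout. The line counted Krt8 and Krt18, keratins of simple epithelium, at high levels in all 8 libraries, whereas Epcam, a surface protein of epithelium, and Nkx2-1, a factor of lung epithelium, reached at most 1 count. The other epithelial markers were low, Krt19 at 0.149 to 3.54 CPM and Cdh1 at no more than 9 counts. Of 5 fibroblast markers, Col3a1 held 348 to 2360 CPM and Pdgfra 11.7 to 85.7, while Dcn reached at most 7.81, Col1a1 3.01 and Lum 0.605. The 4 endothelial markers had at most 39 counts in any library. Of 7 leukocyte markers 5 stayed at or under 3 counts in every library, Ptprc and Cd3e among them, while Cd68 and Itgax were counted in all 8.

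Per unit of transcript length, Jak1 was the highest of the 9 genes. Levels of different genes were compared in TPM, transcript counts scaled by gene length as well as library size, over all 8 libraries. Jak1 averaged 129 ± 33.6 TPM (SD, n = 8) and Irf3 39.5 ± 10.2, and each exceeded the next gene in 8 of 8 libraries. Irf1 (30.0 ± 9.17 TPM) and Tyk2 (29.5 ± 6.16) were not separated, since Irf1 was the higher in 4 libraries and the lower in the other 4. Tyk2 exceeded Ifngr2 (26.5 ± 4.56 TPM) in 5 of 8 libraries, and Ifngr2 exceeded Socs1 (19.1 ± 7.05) in 7 of 8. Socs1 and Ifnar2 (19.0 ± 3.39 TPM) were not separated either, with Socs1 above in 4 of 8. Stat2 (9.14 ± 2.11 TPM) lay below Ifnar2 and above Irf9 (4.34 ± 0.996 TPM) in every library. The order thus ran from the kinase shared by both receptors to the ISGF3 subunits Stat2 and Irf9.

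**Figure D1:**
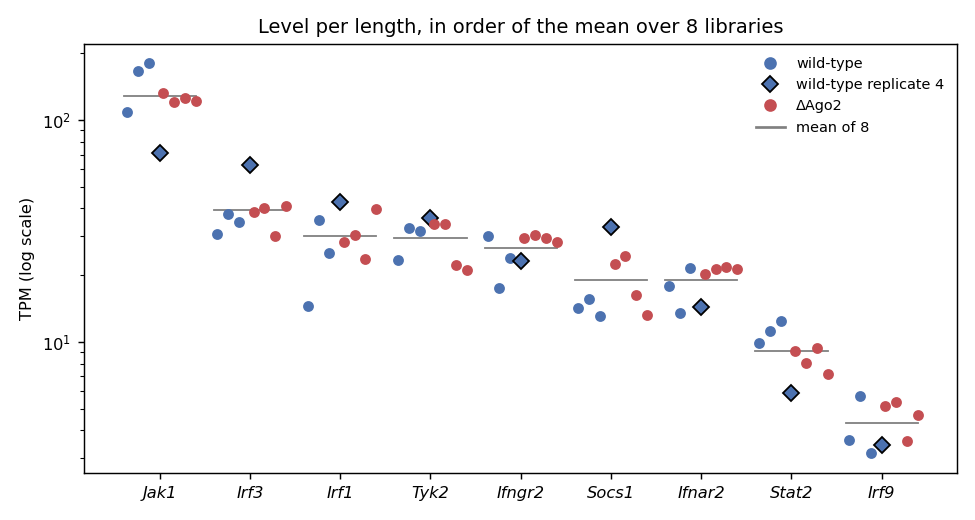
TPM (log axis) of the 9 genes in 4 wild-type (blue; diamond, replicate 4) and 4 ΔAgo2 (red) libraries, ordered by the mean of 8 libraries (grey line). Jak1 lay between 71.0 and 180 TPM, above the other genes in every library, while the points of Irf1, Tyk2 and Ifngr2 ran into each other.

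None of the 9 genes was called changed between the genotypes. All 9 passed the filter on low counts. In edgeR's quasi-likelihood fit, with p-values adjusted by Benjamini and Hochberg's method over 14228 genes, the call was made for 0 of 9 at an adjusted p under 0.05, against 0.295% of all genes tested. At an unadjusted p under 0.05 it placed 0 of 9 genes higher in ΔAgo2 (2.72% of all genes) and 0 of 9 lower (4.62% of all genes). DESeq2, limma-voom and limma on log2 TPM also called 0. The CPM ranges of the genotypes overlapped for each of the 9 genes. They were apart for 6.07% of all genes, so 0 of 9 was near the background. Fitted log2 fold changes ran from -0.47 to 0.11, with 3 genes above 0, 6 below and a median of -0.25, beside a median of -0.108 over all genes tested. Without wild-type replicate 4 the median of the 9 genes moved to 0.15 and that of all genes to -0.036. No common direction of the 9 genes can be read from these libraries.

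**Figure D2:**
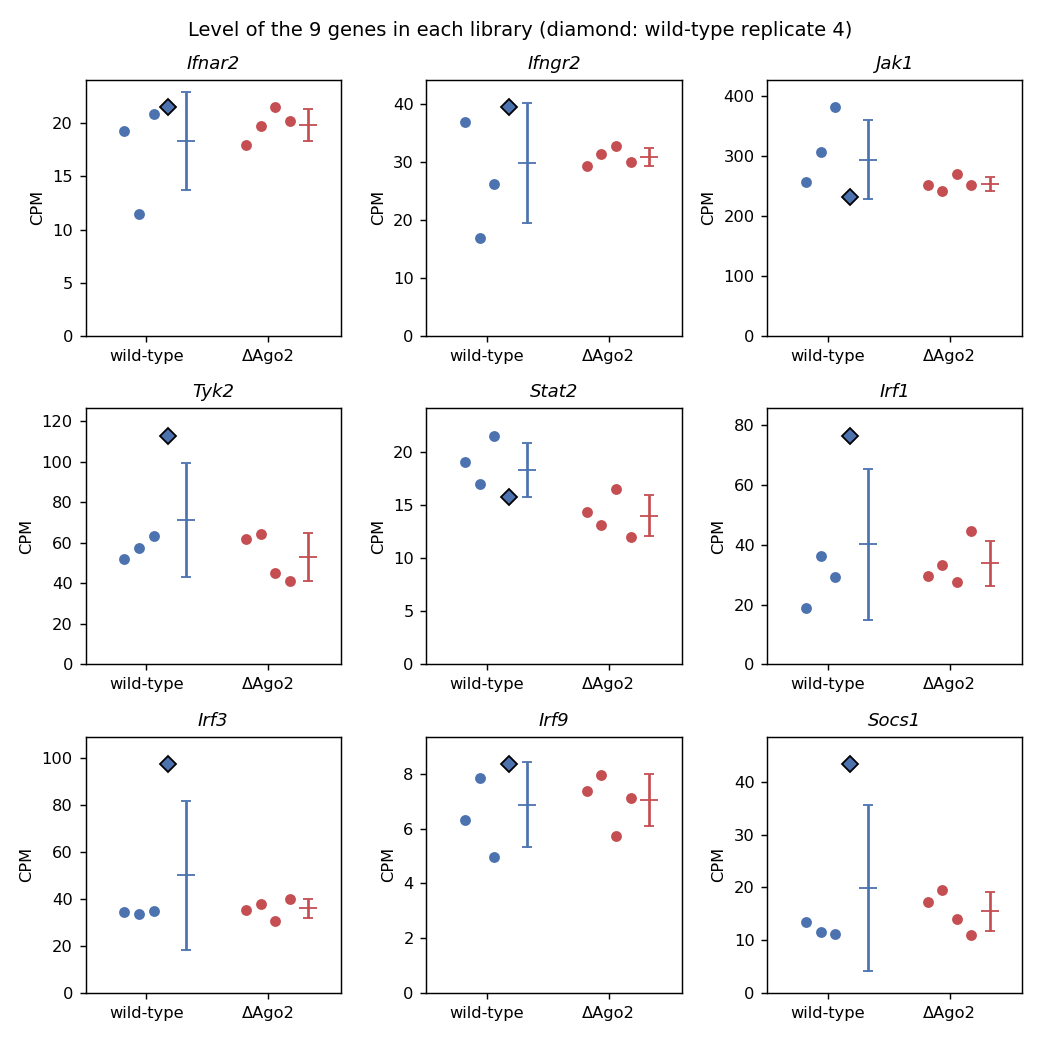
CPM of each of the 9 genes by library, with mean and SD (n = 4) beside the points. Wild-type replicate 4 (diamond) was the highest wild-type library for Ifnar2, Ifngr2, Tyk2, Irf1, Irf3, Irf9 and Socs1 and the lowest for Jak1 and Stat2, and the 4 ΔAgo2 libraries spanned less than the 4 wild-type libraries.

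Ifnar2 (ENSMUSG00000022971.18) encodes the signalling chain of the type I interferon receptor. It lies on chromosome 16 at 91372783 to 91405589 (GRCm38, plus strand). Wild-type replicates 1 to 4 held 19.3, 11.5, 20.9 and 21.5 CPM, and ΔAgo2 replicates 1 to 4 held 17.9, 19.7, 21.5 and 20.2. Replicate 2 was the low wild-type library, and the other 3 lay in or next to the ΔAgo2 range. The log2 fold change of ΔAgo2 over wild-type was 0.11 (SE 0.28, 95% interval -0.51 to 0.73, edgeR adjusted p = 0.933). On the TPM scale Ifnar2 stood at 16.8 ± 3.66 in wild-type and 21.2 ± 0.682 in ΔAgo2 libraries, again with overlapping ranges. Gm21970, an annotated protein-coding gene on the same strand, shares 315 exonic bases with Ifnar2, or 9.46% of its exonic length, and had 0 counts in all libraries.

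Ifngr2 (ENSMUSG00000022965.8), the signalling chain of the interferon gamma receptor, lies on the same chromosome at 91547072 to 91565623. Its wild-type libraries held 36.9, 16.9, 26.2 and 39.5 CPM and its ΔAgo2 libraries 29.3, 31.5, 32.8 and 30.0. The ΔAgo2 values fell in the middle of the wide wild-type range, with replicate 2 again the lowest. The log2 fold change was 0.05 (SE 0.30, 95% interval -0.62 to 0.72, edgeR adjusted p = 0.977).

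Between these genes on chromosome 16 lie Il10rb, which encodes a chain shared by the interleukin 10 and interferon lambda receptors, and Ifnar1. Ifnar1, the second chain of the type I receptor, held 48.8 ± 4.96 CPM in wild-type and 49.2 ± 5.94 in ΔAgo2 libraries (log2 fold change 0.013, edgeR adjusted p = 0.993, below 0 with other size factors or GC correction). In TPM it exceeded Ifnar2 in 8 of 8 libraries, by a ratio of 1.56 ± 0.385 (SD, n = 4) in wild-type and 1.41 ± 0.269 in ΔAgo2 (exact permutation test, two-sided, p = 0.6). Ifngr1, the binding chain for interferon gamma, held 20.3 ± 2.14 and 21.9 ± 8.17 CPM (edgeR adjusted p = 0.939). Ifngr2 was above Ifngr1 in TPM in 6 of 8 libraries, so that neither chain was in clear excess. Ifnlr1, the specific chain for interferon lambda, had 0 counts in all 8 libraries. Receptors for type I and type II interferon were therefore transcribed in both genotypes, and the lambda receptor was not detected at this depth.

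The ligands were nearly silent. Of 21 interferon genes 0 passed the filter on low counts, 19 had at most 3 counts in every library, and all 21 together had 34 counts over the 8 libraries. The other two, Ifnz and Ifne, reached 7 and 5 counts at most. These are named because they alone exceeded 3 counts. Counts of this size cannot show a difference between the genotypes.

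Jak1 (ENSMUSG00000028530.14), the kinase common to type I and type II receptors, lies on chromosome 4 at 101152367 to 101265282 on the minus strand. Wild-type libraries held 109, 166, 180 and 71.0 TPM, and ΔAgo2 libraries held 132, 121, 126 and 122. On the CPM scale the wild-type range was 231 to 381 and the ΔAgo2 range 241 to 269. On both scales wild-type replicates 2 and 3 were above all ΔAgo2 libraries, and replicate 4 was below all of them. Its fitted log2 fold change was -0.21 (SE 0.25, 95% interval -0.77 to 0.34, edgeR adjusted p = 0.841). Raver2, on the opposite strand, overlaps 4 exonic bases of Jak1 and had at most 2 counts. Gm24468 and Gm12785 lie within Jak1, share 0 exonic bases with it and had at most 1 count.

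Tyk2 (ENSMUSG00000032175.11), the kinase bound to Ifnar1, lies on chromosome 9 at 21104068 to 21131243 on the minus strand. Its wild-type libraries held 52.2, 57.4, 63.2 and 113 CPM and its ΔAgo2 libraries 62.0, 64.6, 45.1 and 41.0. Replicate 4 alone stood above the others in wild-type, and among ΔAgo2 libraries replicates 3 and 4 lay below every wild-type library while replicates 1 and 2 did not. The log2 fold change was -0.43 (SE 0.32, 95% interval -1.13 to 0.28, edgeR adjusted p = 0.76), and -0.11 without wild-type replicate 4. The antisense gene 1700084C06Rik overlaps 554 exonic bases of Tyk2 and had 8 to 54 counts per library, far under those of Tyk2. In TPM, Jak1 exceeded Tyk2 in 8 of 8 libraries, with ratios from 1.95 in wild-type replicate 4 to 5.81 in ΔAgo2 replicate 4.

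The remaining Janus kinases also passed the filter. Jak2, which serves the interferon gamma receptor, held 51.7, 56.9, 77.9 and 7.85 CPM in wild-type and 79.1, 69.5, 58.4 and 50.0 in ΔAgo2 libraries. Only replicate 4 was far from the rest, and the log2 fold change was 0.40 with it and 0.05 without it (edgeR adjusted p = 0.858 and 0.945). Jak3, the kinase of receptors with the common cytokine gamma chain, held 23.4 to 50.9 CPM in wild-type and 19.1 to 23.8 in ΔAgo2 libraries. Its log2 fold change of -0.74 (SE 0.30) had an unadjusted p of 0.0323 but an adjusted p of 0.613 by edgeR.

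Stat2 (ENSMUSG00000040033.16) was the gene of the 9 whose genotypes came nearest to separating. It lies on chromosome 10 at 128270559 to 128292849 on the plus strand and encodes the STAT that ISGF3 has and the GAS-binding dimer lacks. Wild-type libraries held 19.0, 17.0, 21.5 and 15.7 CPM, and ΔAgo2 libraries held 14.3, 13.1, 16.5 and 12.0. Only ΔAgo2 replicate 3 and wild-type replicate 4 crossed, the former being the higher. In edgeR the log2 fold change was -0.39 (SE 0.26, 95% interval -0.96 to 0.18, edgeR adjusted p = 0.74), and an exact permutation test on CPM gave p = 0.0571 (two-sided; 4 against 4 cannot go below 0.0286). Without wild-type replicate 4 it was -0.45 (95% interval -0.88 to -0.02, unadjusted p = 0.0429, edgeR adjusted p = 0.381), and the remaining libraries no longer overlapped. In that comparison of 3 with 4 libraries 6.94% of all genes were lower at an unadjusted p under 0.05, and 12.1% had groups apart, so 1 of 9 was near the background on either count. Leaving out ΔAgo2 replicate 3 also set the groups of Stat2 apart, as it did for 8.21% of all genes. Its fitted difference stayed below 0 in all 21 alternative analyses, from -0.49 to -0.17, with adjusted p from 0.256 to 0.984. These analyses reuse the same libraries and are not independent, so the steady sign is a description only.

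A window of the Stat2 promoter is shown because it holds the ISRE core, here read on the opposite strand. Each promoter was taken from RefSeq (GRCm38.p6) as 250 bases before to 50 after the start, which gave 11 windows for the 9 genes because Irf1 and Irf9 have more than one start. Both strands were searched for the ISRE core GAAANNGAA and for the GAS TTCNNNGAA. Capitals mark the match, 221 to 213 bases before the start (chr10:128270252-128270310, plus strand).
Stat2: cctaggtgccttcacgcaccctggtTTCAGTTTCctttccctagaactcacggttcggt
The same core was found in 8.56% of 32851 mouse promoters and the GAS in 8.3%. Of the 9 genes, 2 had an ISRE core (Stat2 and Socs1) and 2 a GAS (Ifnar2 and Irf1). These counts are by gene, whereas the shares are by promoter window. A match is a description of these letters and not evidence of binding.

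Of the 6 STAT genes other than Stat2, 5 passed the filter and 1 was lower at an unadjusted p under 0.05 (4.62% of all genes). This was Stat5a, a STAT of cytokine and growth hormone receptors, at 9.46 to 27.8 CPM in wild-type and 4.83 to 10.1 in ΔAgo2 libraries (log2 fold change -1.01, SE 0.43, edgeR adjusted p = 0.656; -0.51 without wild-type replicate 4).

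Irf1 (ENSMUSG00000018899.16) lies on chromosome 11 at 53770014 to 53778374 on the plus strand. The promoter window at the upstream start of Irf1 is shown because it holds a GAS, the element bound by the factor that interferon gamma activates. The match lies 90 to 82 bases before that start (chr11:53769899-53769957, plus strand, GRCm38.p6), and the other window of Irf1 held no match. It is given in capitals beside that of Ifnar2, 214 to 206 bases before the Ifnar2 start (chr16:91372544-91372602, plus strand).
Irf1: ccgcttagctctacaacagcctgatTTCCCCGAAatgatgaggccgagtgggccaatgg
Ifnar2: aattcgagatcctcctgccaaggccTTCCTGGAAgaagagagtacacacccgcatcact
Irf1 and Ifnar2 thus hold the same spaced half-sites with different middle letters.

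Wild-type libraries held 18.8, 36.2, 29.4 and 76.5 CPM of Irf1, and ΔAgo2 libraries held 29.6, 33.3, 27.7 and 44.6. Both the lowest and the highest library were wild-type, replicates 1 and 4, so that the ΔAgo2 values lay wholly inside the wild-type range. The log2 fold change was -0.25 (SE 0.41, 95% interval -1.16 to 0.66, edgeR adjusted p = 0.891) and turned to 0.27 without wild-type replicate 4. Gm17334, on the opposite strand, overlaps 135 exonic bases of Irf1 and had 4 to 19 counts per library.

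Irf3 (ENSMUSG00000003184.15) lies on chromosome 7 at 44997648 to 45002848 on the plus strand. Its wild-type libraries held 34.4, 33.4, 34.8 and 97.3 CPM and its ΔAgo2 libraries 35.3, 38.0, 30.7 and 39.9. Apart from wild-type replicate 4, the 7 libraries lay within a narrow band. ΔAgo2 over wild-type, the log2 fold change was -0.47 (SE 0.38, 95% interval -1.32 to 0.37, edgeR adjusted p = 0.779) and became 0.08 without that library, with an interval of -0.26 to 0.42. Irf3 had the narrowest interval of the 9 genes in that comparison, and larger differences than these bounds lay outside it. Bcl2l12, on the opposite strand, overlaps 88 exonic bases of Irf3 and had 337 to 797 counts per library.

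Irf9 (ENSMUSG00000002325.15), the DNA-binding subunit of ISGF3, lies on chromosome 14 at 55603571 to 55610030 on the plus strand. Wild-type libraries held 6.32, 7.85, 4.95 and 8.35 CPM and ΔAgo2 libraries 7.36, 7.96, 5.74 and 7.13. The ΔAgo2 values lay inside the wild-type range. The log2 fold change was 0.038 (SE 0.31, 95% interval -0.65 to 0.72, edgeR adjusted p = 0.983). In TPM, Stat2 exceeded Irf9 in 8 of 8 libraries, by a ratio of 2.59 ± 1.0 (SD, n = 4) in wild-type and 1.85 ± 0.519 in ΔAgo2 (exact permutation test, two-sided, p = 0.2). Rnf31, the upstream neighbour on the same strand, shares 123 exonic bases with Irf9, 2.28% of Irf9's exonic length. Rnf31 had 934 to 2997 counts per library, against 234 to 554 for Irf9. Reads in the shared bases could not be assigned to either gene by position alone.

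Placed in their family, Irf3 was the most abundant IRF transcript in 8 of 8 libraries, and Irf9 stood in the middle. Irf2, which binds the same sites as Irf1 and mostly represses, averaged 22.9 ± 7.39 TPM (SD, n = 8) and was not separated from Irf1, which was the higher in 4 of 8 libraries. Irf5 averaged 4.41 TPM, with Irf9 above it in 4 of 8 libraries, Irf8 2.19 and Irf7, the amplifier of type I interferon induction, 1.18. Irf4 reached at most 2 counts and did not pass the filter. Irf2 held 45.8 ± 18.3 CPM in wild-type and 53.0 ± 5.77 in ΔAgo2 libraries (edgeR adjusted p = 0.875), and Irf7 held 1.71 ± 0.712 and 1.08 ± 0.165 (adjusted p = 0.74). Irf8, a factor of myeloid and lymphoid cells, is named after its values were seen: it was the only IRF gene whose groups did not overlap, at 3.80, 1.36, 1.57 and 5.43 CPM in wild-type and 6.04, 5.77, 6.94 and 6.22 in ΔAgo2 libraries (log2 fold change 1.04, SE 0.47, edgeR adjusted p = 0.678).

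**Figure D3:**
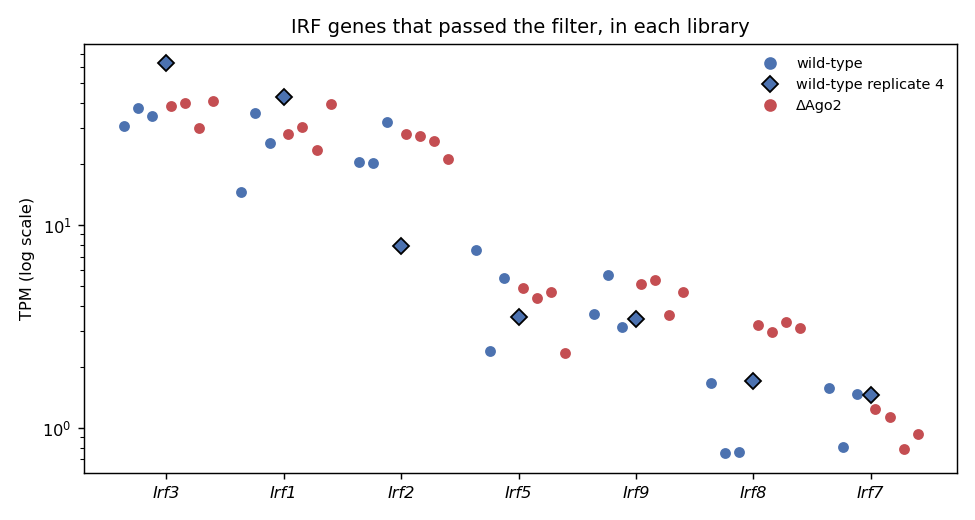
TPM (log axis) of the IRF genes that passed the filter in 4 wild-type (blue; diamond, replicate 4) and 4 ΔAgo2 (red) libraries, ordered by the mean of 8. Irf3 leads in every library, Irf1 and Irf2 run into each other, Irf7 has the lowest mean, and Irf8 is the gene whose red points all lie above its blue ones.

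Socs1 (ENSMUSG00000038037.5) lies on chromosome 16 at 10782240 to 10785536 on the minus strand. Its promoter window is shown because it held 2 overlapping ISRE cores, 83 to 69 bases before the start, both in capitals (chr16:10785580-10785644, minus strand, GRCm38.p6).
Socs1: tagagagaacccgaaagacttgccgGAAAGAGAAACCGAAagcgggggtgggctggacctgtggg
Of the 11 windows searched, that of Socs1 alone held more than one match.

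Wild-type libraries held 13.4, 11.6, 11.1 and 43.4 CPM of Socs1, and ΔAgo2 libraries held 17.3, 19.5, 14 and 11.0. With wild-type replicate 4 the wild-type mean was the higher, at 19.9 ± 15.7 against 15.5 ± 3.73. Without it the wild-type mean was 12.0 ± 1.22 (n = 3), and 3 of 4 ΔAgo2 libraries lay above every remaining wild-type library. Fitted over 8 libraries, the log2 fold change was -0.36 (SE 0.47, 95% interval -1.40 to 0.68, edgeR adjusted p = 0.856), and 0.37 without that library (adjusted p = 0.549), so no direction is given for Socs1.

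**Figure D4:**
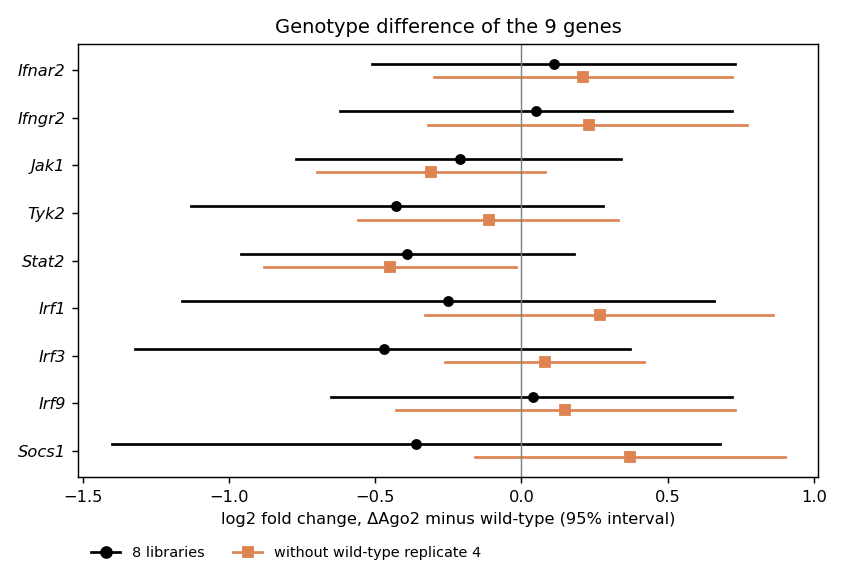
Log2 fold change of ΔAgo2 over wild-type with its 95% interval from edgeR, for all 8 libraries (black) and without wild-type replicate 4 (orange). All intervals over 8 libraries include 0, and Irf1, Irf3 and Socs1 cross from below 0 to above it when that library is left out.

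How far wild-type replicate 4 lay from the other wild-type libraries differed among the 9 genes. Relative to the mean of wild-type replicates 1 to 3, its CPM ratio was 3.61 for Socs1, 2.85 for Irf3, 2.72 for Irf1 and 1.96 for Tyk2. It was 1.48 for Ifngr2, 1.31 for Irf9 and 1.25 for Ifnar2, and below 1 for Stat2 (0.822) and Jak1 (0.736). Ranked by GC content of the longest transcript, Socs1 (58.8%), Tyk2 (57.0%) and Irf3 (56.7%) came first and Jak1 (47.6%) last, beside a median of 49.6% over all genes tested. Across the 9 genes the ratio and the GC content had a Spearman rho of 0.79, and across 61 other tested genes of the pathway lists 0.74, both given as descriptions because the genes share the same libraries. The part of GC content in the values of wild-type replicate 4 was not tested. With a GC correction in the fit, Tyk2 stood at -0.12, Irf3 at -0.07, Irf1 at -0.04 and Socs1 at 0.16 on the log2 scale, each nearer to 0 than without it, and Jak1 at -0.34 was farther. Each of the 9 genes varied more among wild-type than among ΔAgo2 libraries. The median SD of log2 CPM over the 9 genes was 0.50 against 0.19, and over all genes tested 0.80 against 0.24.

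**Figure D5:**
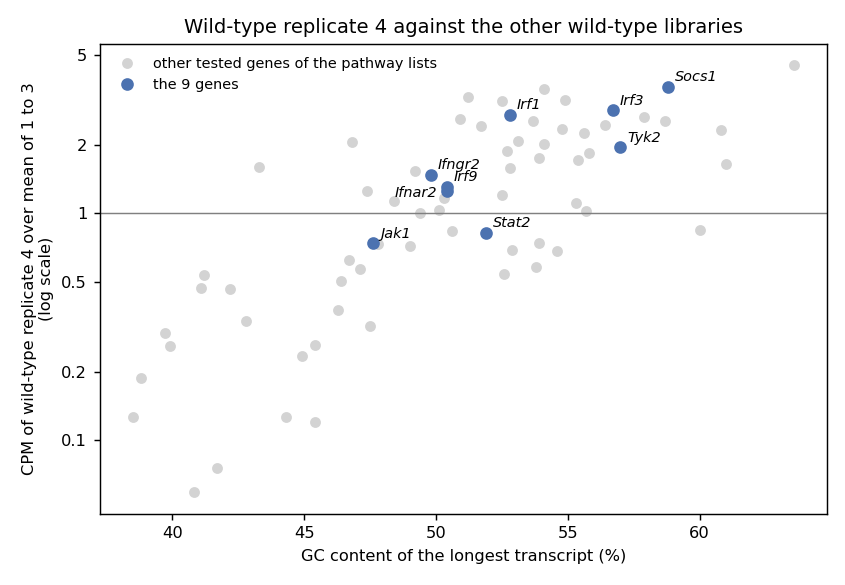
CPM of wild-type replicate 4 divided by the mean of wild-type replicates 1 to 3 (log axis) against GC content of the longest transcript, for the 9 genes (blue) and 61 other tested genes of the pathway lists (grey). Socs1, Irf3 and Tyk2 lie at the GC-rich, high end and Jak1 lies below the line at 1.

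In edgeR no other gene of the pathway was called either. Outside the 9 genes, the ligands and the targets, 39 of 43 genes of the receptors, kinases, STATs, IRFs, IRF activators and inhibitors were tested. Of these, 0 were called, and their median log2 fold change was -0.09 (0.03 without wild-type replicate 4). At an unadjusted p under 0.05, 1 was higher and 3 were lower, beside 2.72% and 4.62% of all genes tested. The one that was higher is Ikbke, a kinase that activates Irf3. It held 26.0, 15.0, 18.6 and 23.2 CPM in wild-type and 39.8, 40.5, 38.6 and 26.0 in ΔAgo2 libraries, so that its groups just failed to overlap (log2 fold change 0.81, SE 0.28, edgeR adjusted p = 0.505). Usp18, an inhibitor that acts at Ifnar2 and is itself interferon-induced, was scarce, at 0.669 to 2.39 CPM in wild-type and 0.309 to 0.832 in ΔAgo2 libraries. Its log2 fold change was -1.37 (SE 0.53, edgeR adjusted p = 0.59; -0.88 without wild-type replicate 4), and the ranges overlapped. Of 19 inhibitors tested, 13 had fitted values below 0 and 6 above, but 9 and 10 without wild-type replicate 4. Socs5 is named because its CPM ranges were apart, higher in ΔAgo2, with an edgeR adjusted p of 0.732.

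Transcripts downstream of the pathway were described from lists of 17 ISGF3 targets and 15 GAS or Irf1 targets, of which 12 and 10 were tested. In both lists edgeR called 0 genes. Of the ISGF3 targets 8 had fitted values above 0 and 4 below, with a median of 0.33. At an unadjusted p under 0.05, 2 were higher, beside 2.72% of all genes tested. Without wild-type replicate 4 the split was 7 and 5 and the median 0.05. Parp14, an ADP-ribosyltransferase, was one of them, at 4.86, 6.33, 4.15 and 1.92 CPM in wild-type and 9.47, 9.95, 8.87 and 9.48 in ΔAgo2 libraries (log2 fold change 1.13, SE 0.38, edgeR adjusted p = 0.493). The ΔAgo2 libraries all lay above the wild-type libraries, and the log2 fold change was 0.89 without wild-type replicate 4.

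Among GAS or Irf1 targets 4 had fitted values above 0 and 6 below, with a median of -0.52. Without wild-type replicate 4 the split was 3 and 7 and the median -0.54. At an unadjusted p under 0.05, 1 was higher and 3 were lower, beside 2.72% and 4.62% of all genes tested. Gbp7, a guanylate-binding protein of antimicrobial defence, was higher in every ΔAgo2 library, at 2.03 to 3.09 CPM against 0.0621 to 1.41 in wild-type (log2 fold change 1.97, SE 0.68, edgeR adjusted p = 0.503). With limma-voom and quality weights it was the single pathway gene called (log2 fold change 2.02, adjusted p = 0.0462), and DESeq2 gave an adjusted p of 0.0675. Over all alternatives its adjusted p ran from 0.0462 to 0.978. Tap1, the peptide transporter for MHC class I, held 14.1 to 35.1 CPM in wild-type and 11.3 to 14.5 in ΔAgo2 libraries (log2 fold change -0.90, SE 0.32, adjusted p = 0.516). Nlrc5, the transactivator of MHC class I genes, held 14.2, 4.35, 7.40 and 4.69 CPM in wild-type and 3.55, 3.23, 4.19 and 0.832 in ΔAgo2 libraries. Its groups were apart by a small gap, with a log2 fold change of -1.38 (SE 0.56, edgeR adjusted p = 0.613). Over all 61 tested pathway genes outside the 9, 4 were higher and 6 lower at an unadjusted p under 0.05. Of these 61, 6 had groups apart, and the smallest adjusted p by edgeR was 0.493. By the same measures 2.72% of all genes tested were higher, 4.62% lower and 6.07% apart.

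Likeness of pattern was described by Pearson's r of log2 CPM over the 8 libraries, for each of the 9 genes against 69 others of the pathway. Irf9 was most like Il10rb (r = 0.98, and 0.97 over 7 libraries without wild-type replicate 4). Ifnar2 and Ifngr2 were both most like Cish, an inhibitor of cytokine receptor signalling (r = 0.91 and 0.93, and 0.95 and 0.92 over 7 libraries). These 3 patterns did not rest on wild-type replicate 4, the only library left out here. Wild-type replicate 2 was the lowest of 8 for Ifnar2 (11.5 CPM), Ifngr2 (16.9 CPM) and Cish (0.567 CPM), and r without it was not computed.

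Stat2 was most like Nlrc5 (r = 0.85 with and without that library), Tyk2 like Stat5a (0.93 and 0.78), Socs1 like Pias4, an inhibitor of STAT activity (0.97 and 0.85), and Jak1 like Socs7 (0.72 and 0.68). Irf1 was most like Stat5b (0.88 and 0.62). Irf3 was most like Socs3 at r = 0.91, which became -0.03 over 7 libraries, so that likeness rested on wild-type replicate 4. Among the 36 pairs of the 9 genes, 5 had r above 0.8 over 8 libraries and 1 over 7, namely Ifnar2 with Ifngr2 (r = 0.86 in both). Ifnar2 and Ifngr2 were both lowest in wild-type replicate 2. All pairs were compared over the same libraries, which differed in depth and in how their values followed GC content.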

How the data were processed

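RNA of 4 wild-type and 4 Ago2 knock-out LLC libraries had been sequenced with a stranded kit. The authors aligned reads to ribosomal RNA and then to mm10 (STAR in the submitters' processing notes), and deposited raw counts per gene from featureCounts. The annotation release and strand setting are not given in the sources used here. The authors also deposited TPM, scaled to the same sum in each library, with gene lengths not stated. A column of each table was matched to each library by its labels.

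Counts were filtered (filterByExpr), scaled by TMM and fitted by genotype with edgeR 4.0.16 quasi-likelihood in R 4.3.3. The code was run on simulated counts with equal dispersion in both genotypes, no GC trend and no odd library. That run does not bear on these features of the data. P-values were adjusted over 14228 genes, with a threshold of 0.05, two-sided. CPM use TMM library sizes. The alternatives were DESeq2 1.42.0, limma 3.58.1 (voom, with and without quality weights, and log2 TPM with pseudocounts of 1 and 0.1), other filters and size factors, a GC spline of 5 degrees of freedom, a replicate block and leaving out each library. Positions, exonic lengths and GC content came from GENCODE vM21 (GRCm38, the same assembly as mm10), which matched 55394 of 55487 identifiers. RefSeq promoter windows were found for 9 of 9 genes. Intervals of the fits are at 95%. A floor of 3 counts was taken as not detected and covers counting error only.

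The genes and lists were chosen with earlier results of these data known. Outside the 9 genes, those named were the 8 pathway genes with the smallest p among those at an unadjusted p under 0.05 or with groups apart, the direct partners Ifnar1, Ifngr1, Jak2, Irf2 and Irf7, genes overlapping a member, and for each of the 9 the gene with the most similar pattern. One further gene that the rule names is not reported here, although the counts over lists include it. The IRF family and any gene named for another reason were chosen after values were seen.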

Additional observations from a re-analysis of the deposited data

Results flagged for a closer look

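In 6 of 50 groups of 4 libraries examined, the library at one end was far from the others: its gap to the nearest, as a share of the whole range, was above Dixon's 95% critical value for 4. Chance gives about 1 in 20 groups only where the groups are independent. These groups share the same libraries, so 6 of 50 cannot be read against that rate. Wild-type replicate 4 was such a library for Irf3 (0.962, with 3135 counts against 1690 to 2355), for Socs1 (0.861, with 1397 against 659 to 818) and for its median correlation with its own group (0.866). ΔAgo2 replicate 4 was the low library for Ikbke (0.889, with 1377 counts against 1573 to 2445), for Nlrc5 (0.839, with 44 against 136 to 218) and for Irf2 (0.896, with 2349 against 2312 to 3394, lowest after scaling to library size).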

How the results depend on the processing

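None of the 9 genes was called under any alternative. The number of all genes called, 42 with edgeR, was 399 with DESeq2, 257 with limma-voom quality weights, 143 with no filter, 6 with CPM above 1 in at least 4 libraries, 73 with GC correction, 71 with GC correction and replicate block, 3 with log2(TPM + 1), and 1 to 97 when a library was left out, the highest without wild-type replicate 4 and the lowest without ΔAgo2 replicate 1. A block for replicate number gave 18. Deviations from the genotype mean correlated at -0.14 to 0.38 between libraries of the same number (mean 0.056, and -0.023 for different numbers). Whether libraries of the same number share a preparation was not tested. The count of the 9 genes lower at an unadjusted p under 0.05 was 1 with quality weights. The share of all genes lower in that fit was not computed, so this count has no background. With a library left out the count was 0 to 1, and without wild-type replicate 4 6.94% of all genes were lower. The count of the 9 genes with groups apart was 0 to 1, beside 12.1% of all genes without wild-type replicate 4 and 8.21% without ΔAgo2 replicate 3. The median of the 9 log2 fold changes was 0.071 and 0.077 with log2(TPM + 1) and log2(TPM + 0.1), and -0.37 to 0.15 with a library left out. It was also above 0 with quality weights (0.052) and with GC correction and replicate block (0.026). The median of all genes moved from -0.11 to -0.008 with library size alone, 0.15 with log2(TPM + 1) and 0.22 with log2(TPM + 0.1), so a small value near 0 has no firm sign.

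Signs turned as follows. In log2(TPM + 1) and log2(TPM + 0.1), Jak1 was at 0.019 and 0.02, Irf1 at 0.12 and 0.13, and Socs1 at 0.071 and 0.077. With quality weights, Tyk2 was at 0.052, Irf1 at 0.39, Irf3 at 0.043, Socs1 at 0.39 and Ifngr1 at -0.0082. GC correction put Socs1 at 0.16 and Ifnar1 at -0.0071, and with the block Irf1 at 0.026, Socs1 at 0.17, Ifnar1 at -0.004 and Ifngr1 at -0.046. Ifnar1 was at -0.00076 with DESeq2's size factors. The cause was not tested. With a library left out the ranges were -0.074 to 0.21 for Ifnar2, -0.16 to 0.23 for Ifngr2, -0.49 to 0.27 for Irf1, -0.65 to 0.081 for Irf3, -0.091 to 0.15 for Irf9, -0.57 to 0.37 for Socs1, -0.071 to 0.077 for Ifnar1 and -0.18 to 0.23 for Ifngr1. Depth limits statements on the ligands, Ifnlr1 and Irf4.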
